A study of Danio rerio with 14 samples.

Results

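The genes described are those of the enzymes that write DNA methylation in the zebrafish embryo, together with uhrf1, the gene of the protein that guides the maintenance enzyme. They were chosen by name, as uhrf1, the TET genes and every gene whose symbol begins with dnmt, and 7 genes matched, of 14077 genes listed in any of the 3 deposited comparison tables. All 7 stood in every table: dnmt1, uhrf1, dnmt3aa, dnmt3ba, dnmt3bb.1, dnmt3bb.2 and dnmt3bb.3. No row matched tet1, tet2 or tet3, and these genes and dnmt3ab are not analysed here.

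The embryos were offspring (F1) of AB wild type fish, collected 5.5 hours after fertilization, as gastrulation begins. The tested embryos came from parents given gamma radiation while their gametes formed, at 53 mGy/h and bred 1 month later (53 mGy/h, 0 yr, 3 libraries), at 8.7 mGy/h and bred at the same time (8.7 mGy/h, 0 yr, 3 libraries), or at 8.7 mGy/h and bred again after 1 year (8.7 mGy/h, 1 yr, 3 libraries). Their references were offspring of unexposed parents of the first brood (control, 0 yr, 2 libraries) and of the later brood (control, 1 yr, 3 libraries). Each library was made from RNA of 100 pooled embryos after enrichment on oligo(dT) beads, and 1 control, 0 yr sample was lost during extraction. The labels do not say which parents or spawning day gave each library, so the p-values may cover technical spread only.

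Methylation of cytosine in CpG pairs is kept through cell division by DNMT1, which copies the pattern of the old strand onto the new one, and UHRF1 binds hemimethylated DNA and brings DNMT1 there. The DNMT3 enzymes add methyl groups to sites that had none; zebrafish carry a pair of DNMT3A-like genes and several DNMT3B-like ones. TET enzymes oxidise methylcytosine, which leads to its removal. Early zebrafish embryos rely first on RNA and protein laid down by the mother and then on their own transcription, and in this species the methylation pattern of the sperm is largely the one that the embryo adopts.

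Every level is the authors' value for a whole group in RPM (reads scaled to library size), with no spread between libraries. A change is the exposed minus the control log2 RPM, and a gene is called where the authors' adjusted p (FDR) is under 0.05. That FDR need not measure the change against 0. At 53 mGy/h, 0 yr, cdca7a had a change of 0.14 and an FDR of 0.998 in the authors' deposited table. There ogt.2, with a change of -0.14, had an FDR of 0.080. A small rise and an equal fall can thus have unlike FDRs. The geometric mean depth recovered from the low values was 22.6 to 27.7 M reads (megareads) per library. That gives about 85.9 reads per library for the lowest level of any of the 7 genes (dnmt3aa in control, 1 yr) and about 17805 for the highest (uhrf1 in 53 mGy/h, 0 yr). RPM is not divided by transcript length, so levels are compared between groups and not between genes. The list of germ layer genes that mark embryos of this age held 16 symbols, with tbxta a second name of ta and chrd of chd. Of its genes, 12 were listed in each 0 yr table and 14, which is all of them, at 1 yr. Of 8 genes of tissues not yet formed, elavl3 alone was listed, at 0.54 to 1.13 RPM and at 0 yr only. The higher group of every gene listed had at least 0.58 RPM at 0 yr and at least 1.08 RPM at 1 yr. A gene not listed may thus lie below that floor rather than be absent.

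The 7 genes lie on 5 chromosomes in GRCz10, the build named in the submitters' processing notes. The gene dnmt1 spans chr3:54336611-54352679 on the minus strand, uhrf1 chr22:3955795-3986463 (minus), dnmt3aa chr20:47063549-47148276 (minus) and dnmt3ba chr8:23334975-23359960 (plus). The other 3 genes form a cluster on the minus strand of chromosome 23, with dnmt3bb.3 at chr23:17034926-17055642, dnmt3bb.2 at chr23:17035036-17078731 and dnmt3bb.1 at chr23:17085111-17175017. The gene models of dnmt3bb.3 and dnmt3bb.2 overlap by 20607 bases, which is 99.5% of dnmt3bb.3 and 47.2% of dnmt3bb.2. How reads in the shared stretch were assigned is not given in the sources used here, so the values of this pair are uncertain one by one.

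Embryos of parents exposed at 53 mGy/h (0 yr) had more dnmt1 RNA and less RNA of 2 de novo methyltransferase genes. The maintenance gene dnmt1 rose 2.2-fold, while dnmt3bb.2 fell 1.73-fold and dnmt3ba fell 1.56-fold. The level of uhrf1 differed little, and dnmt3bb.1, dnmt3bb.3 and dnmt3aa did not pass the test. In all, 3 of 7 genes (42.9%) were called, beside 43.6% of the 13714 genes in that table, so the share is that of the table as a whole. The 1 gene called higher stands beside 22.1% of all genes called higher, and the 2 called lower beside 21.5% called lower.

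The level of dnmt1 was 259 RPM in 53 mGy/h, 0 yr embryos, against 118 RPM in control, 0 yr embryos. That is a log2 change of 1.13, with an FDR of 2.18e-09 in the authors' deposited table. The change was larger than that of 88.1% of the genes listed, and 1630 genes rose by more. Genes called higher by at least 2-fold made up 13.6% of the table. In RNA from whole embryos, more cells that hold a transcript and more of it per cell cannot be told apart.

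The partner gene uhrf1 was at 652 RPM in 53 mGy/h, 0 yr embryos, against 589 RPM in control, 0 yr embryos. Its log2 change of 0.15 lay close to the median of all genes listed (0.12), and its FDR was 0.914 in the authors' deposited table. Measured against the median of the genes with a mean of at least 10 RPM, uhrf1 differed by 0.03 on the log2 scale, dnmt1 by 1.02, dnmt3bb.2 by -0.91 and dnmt3ba by -0.76. The RPM ratio of dnmt1 to uhrf1 was 0.397 in 53 mGy/h, 0 yr embryos and 0.200 in control, 0 yr embryos. The tables give no error for this ratio.

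Among the de novo genes, dnmt3bb.2 was at 76.8 RPM in 53 mGy/h, 0 yr embryos, against 133 RPM in control, 0 yr embryos, a log2 change of -0.79. The authors' deposited table lists it with an FDR of 1.38e-12, the lowest of the 7 genes in that table. Its DNMT3B-like paralogue dnmt3ba stood at 58.3 RPM in 53 mGy/h, 0 yr embryos, against 90.9 RPM in control, 0 yr embryos. That is a log2 change of -0.64, and the FDR in the authors' deposited table is 5.75e-09. Both genes thus fell by less than 2-fold, a size that 12.4% of the table passed as called lower, and 2043 genes had a lower log2 change than dnmt3bb.2.

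The remaining 3 de novo genes had values above the control that did not pass. The level of dnmt3bb.1 was 30.5 RPM in 53 mGy/h, 0 yr embryos and 22.1 RPM in control, 0 yr embryos, with an FDR of 0.0839 in the authors' deposited table. That of dnmt3bb.3 was 21.6 RPM in 53 mGy/h, 0 yr embryos and 18.6 RPM in control, 0 yr embryos (FDR 0.749 in the authors' deposited table). Neither was called, but at an FDR under 0.1 dnmt3bb.1 would be, making 2 of 7 genes higher beside 24.9% of the table. The DNMT3A-like gene dnmt3aa, with the fewest reads of the 7, was at 7.09 RPM in 53 mGy/h, 0 yr embryos and 5.28 RPM in control, 0 yr embryos (FDR 0.381 in the authors' deposited table). In the chromosome 23 cluster the log2 changes were -0.79 for dnmt3bb.2, 0.47 for dnmt3bb.1 and 0.22 for dnmt3bb.3, of which the first alone was called. The difference between these genes was not tested, and the models of dnmt3bb.2 and dnmt3bb.3 overlap.

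Taken as sums of RPM, the 5 dnmt3 genes held 194 RPM in 53 mGy/h, 0 yr embryos, against 270 RPM in control, 0 yr embryos. The overlapping pair dnmt3bb.2 and dnmt3bb.3, a sum that does not depend on how shared reads were divided between them but would if such reads were dropped or counted for both, held 98.4 RPM in 53 mGy/h, 0 yr embryos and 151 RPM in control, 0 yr embryos. The ratio of dnmt1 to dnmt3bb.2 was 3.37 in 53 mGy/h, 0 yr embryos and 0.887 in control, 0 yr embryos. Of all RPM on the 6 dnmt genes, dnmt1 took 57.1% in 53 mGy/h, 0 yr embryos and 30.4% in control, 0 yr embryos. These sums and ratios come without an error.

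**Figure D1:**
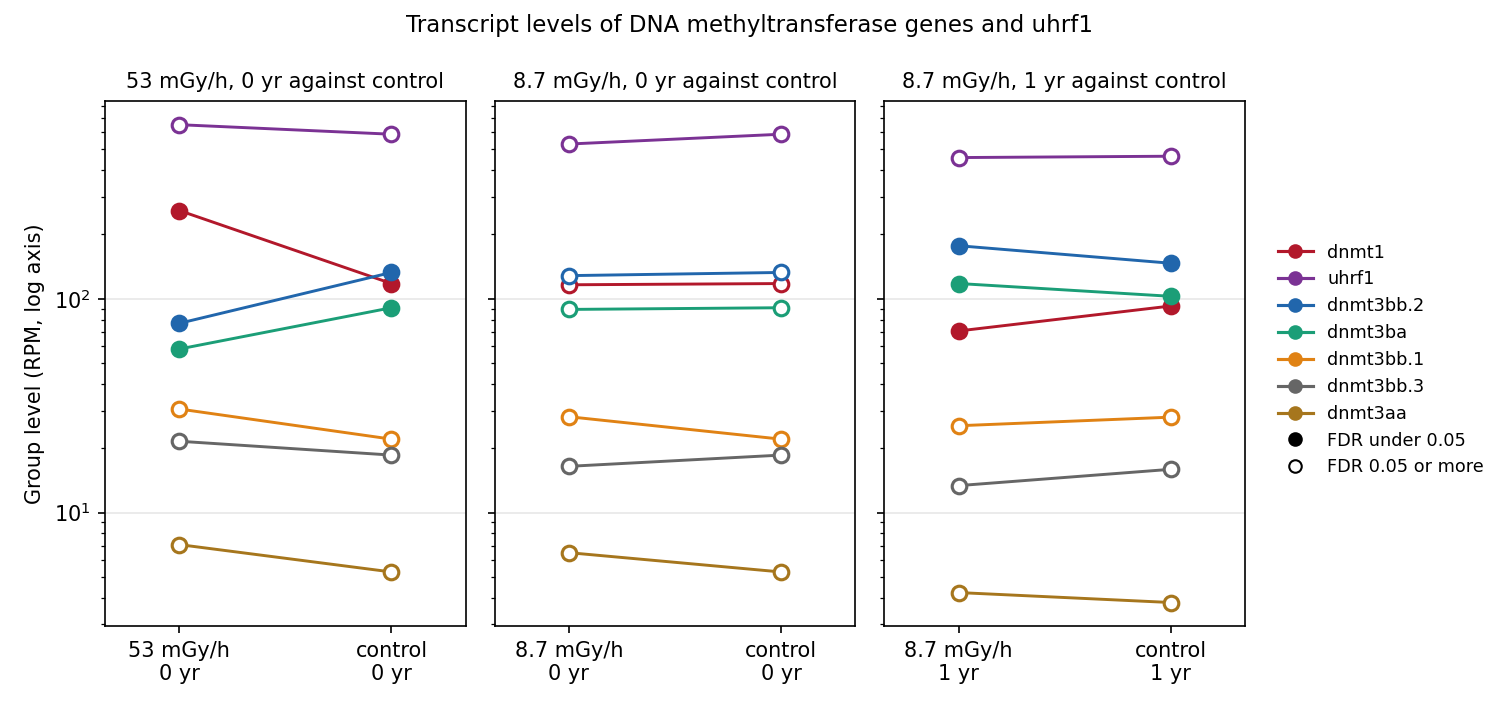
Level of each gene in RPM on a log axis, with the exposed group left of its control in each panel; filled points mark genes with an FDR under 0.05 and there are no error bars because the tables give 1 value per group. In the left panel dnmt1 stands at 259 RPM at 53 mGy/h against 118 RPM in the control, and dnmt3bb.2 at 76.8 RPM against 133 RPM; the middle panel, which has the same control, has no filled point.

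Genes that mark the embryo's own germ layers moved with these changes. All 12 of the germ layer genes listed were called lower in 53 mGy/h, 0 yr embryos, beside 21.5% of all genes. Their summed level was 207 RPM in 53 mGy/h, 0 yr embryos, against 1088 RPM in control, 0 yr embryos. The largest falls were those of sox3, vox and bmp2b, with log2 changes of -3.21, -3.07 and -2.54. In the list of 10 maternal transcripts, 9 were in the table, 3 called higher and 2 lower. That is 55.6%, beside 43.6% of all genes. The largest called changes were those of sox19b, buc and org. The level of sox19b was 522 RPM in 53 mGy/h, 0 yr embryos, against 70.1 RPM in control, 0 yr embryos. In the same order, buc was at 314 and 44.3 RPM and org at 19.7 and 58.6 RPM. The 9 summed to 2909 RPM in 53 mGy/h, 0 yr embryos and 2464 RPM in control, 0 yr embryos. The highest levels in both sums were those of nanog, which was not called, and pou5f3, which was called lower. The part of these differences in the dnmt changes was not tested. The egg coat genes zp2.5 and zp3b, which mark the ovary, summed to 46.0 RPM in 53 mGy/h, 0 yr embryos and 43.4 RPM in control, 0 yr embryos, and neither was called.

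Embryos of the 8.7 mGy/h parents from the same brood had dnmt and uhrf1 levels near those of the control. None of the 7 genes was called, beside 0.294% of the 13263 genes in that table, 0.151% higher and 0.143% lower. The lowest FDR among them was 0.534, for dnmt3bb.1. The authors' deposited table names no test and gives no unadjusted p, and DESeq2 is the one test that the submitters' processing notes name. No count at an unadjusted threshold and no interval for a difference can therefore be given.

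The level of dnmt1 was 116 RPM in 8.7 mGy/h, 0 yr embryos, against 118 RPM in control, 0 yr embryos. The gene uhrf1 was at 529.8 RPM in 8.7 mGy/h, 0 yr embryos, against 589 RPM in control, 0 yr embryos. The largest difference among the 7 was that of dnmt3bb.1, at 28.1 RPM in 8.7 mGy/h, 0 yr embryos, against 22.1 RPM in control, 0 yr embryos. Its log2 change of 0.35 was larger than that of 94.6% of the genes, and 230 genes had a lower FDR in the authors' deposited table.

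The level of dnmt3aa was 6.50 RPM in 8.7 mGy/h, 0 yr embryos, against 5.28 RPM in control, 0 yr embryos. The pair that fell at 53 mGy/h lay close to the control, with dnmt3bb.2 at 128 RPM in 8.7 mGy/h, 0 yr embryos against 133 RPM in control, 0 yr embryos. For dnmt3ba the values were 89.2 RPM in 8.7 mGy/h, 0 yr embryos and 90.9 RPM in control, 0 yr embryos. The gene dnmt3bb.3 was at 16.5 RPM in 8.7 mGy/h, 0 yr embryos and 18.6 RPM in control, 0 yr embryos.

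In this comparison 0 of the 12 germ layer genes listed were called, beside 0.294% of all genes. Their sum was 1128 RPM in 8.7 mGy/h, 0 yr embryos and 1088 RPM in control, 0 yr embryos. The 9 maternal transcripts, none of them called, summed to 2573 RPM in 8.7 mGy/h, 0 yr embryos and 2464 RPM in control, 0 yr embryos.

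Both 0 yr comparisons use the same 2 control libraries, so a control value that is low or high by chance shifts both alike. The log2 change of dnmt3bb.1 was 0.47 at 53 mGy/h and 0.35 at 8.7 mGy/h, and that of dnmt3aa was 0.43 at 53 mGy/h and 0.30 at 8.7 mGy/h. For dnmt1 the log2 change was 1.13 at 53 mGy/h and -0.02 at 8.7 mGy/h, and for dnmt3bb.2 it was -0.79 at 53 mGy/h and -0.05 at 8.7 mGy/h. The difference between the dose rates was not tested, since the tables hold neither standard errors nor values per library.

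**Figure D2:**
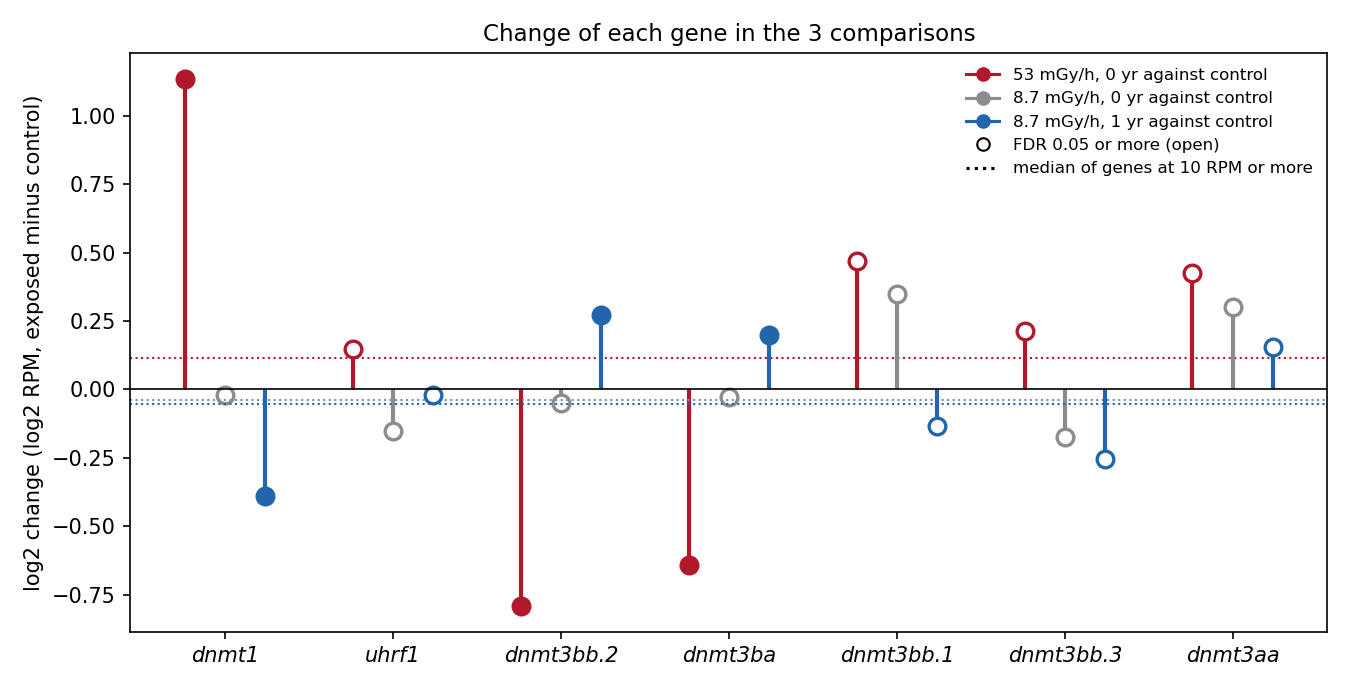
Change in log2 RPM, exposed minus control, for each gene in each comparison, with filled points for an FDR under 0.05 and dotted lines at the median of genes with at least 10 RPM. For dnmt1 the values are 1.13, -0.02 and -0.39 from left to right, and for dnmt3bb.2 -0.79, -0.05 and 0.27.

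At 1 yr after exposure, embryos of the 8.7 mGy/h parents had less dnmt1 RNA and more RNA of dnmt3bb.2 and dnmt3ba. All 3 changes were small, with dnmt1 falling 1.31-fold, dnmt3bb.2 rising 1.21-fold and dnmt3ba rising 1.15-fold. The level of uhrf1 was close to that of the control, and the other 3 genes did not pass. In all, 3 of 7 genes (42.9%) were called, beside 42.4% of the 12502 genes in that table. The 2 called higher stand beside 20.0% of all genes called higher, and the 1 called lower beside 22.4% called lower.

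The level of dnmt1 was 70.8 RPM in 8.7 mGy/h, 1 yr embryos, against 92.6 RPM in control, 1 yr embryos, a log2 change of -0.39. Its FDR in the authors' deposited table was 0.0090. Of the genes listed, 3446 had a lower log2 change. Genes called with a change of at least 1.5-fold made up 4.29% of that table in the higher direction and 14.8% in the lower, and none of the 7 genes was among them.

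For dnmt3bb.2 the level was 177 RPM in 8.7 mGy/h, 1 yr embryos, against 147 RPM in control, 1 yr embryos, a log2 change of 0.27 with an FDR of 4.94e-07 in the authors' deposited table. The level of dnmt3ba was 118 RPM in 8.7 mGy/h, 1 yr embryos, against 103 RPM in control, 1 yr embryos. That is a log2 change of 0.20, with an FDR of 0.000681 in the authors' deposited table. The rise of dnmt3ba was thus smaller than the fall of dnmt1 but had the lower FDR. The median change of all genes in this table was -0.09 rather than 0.

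The gene uhrf1 was at 458 RPM in 8.7 mGy/h, 1 yr embryos, against 465 RPM in control, 1 yr embryos (FDR 0.40 in the authors' deposited table). Its log2 change was -0.02 as deposited and 0.03 relative to the median of genes with at least 10 RPM, so it has no settled sign. The level of dnmt3bb.1 was 25.5 RPM in 8.7 mGy/h, 1 yr embryos, against 28.0 RPM in control, 1 yr embryos. That of dnmt3bb.3 was 13.4 RPM in 8.7 mGy/h, 1 yr embryos, against 15.95 RPM in control, 1 yr embryos, and that of dnmt3aa was 4.23 RPM in 8.7 mGy/h, 1 yr embryos, against 3.80 RPM in control, 1 yr embryos. The FDR of these 3 genes was 0.306 to 0.737 in the authors' deposited table.

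The 5 dnmt3 genes summed to 338 RPM in 8.7 mGy/h, 1 yr embryos, against 297 RPM in control, 1 yr embryos. The overlapping pair dnmt3bb.2 and dnmt3bb.3 summed to 190.6 RPM in 8.7 mGy/h, 1 yr embryos, against 163 RPM in control, 1 yr embryos. The ratio of dnmt1 to dnmt3bb.2 was 0.399 in 8.7 mGy/h, 1 yr embryos and 0.631 in control, 1 yr embryos, and dnmt1 took 17.3% of the RPM on the 6 dnmt genes in 8.7 mGy/h, 1 yr embryos and 23.7% in control, 1 yr embryos.

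The germ layer genes moved in this comparison too, with 9 of 14 called higher and 1 lower, beside 20.0% of all genes higher and 22.4% lower. Their summed level was 2006 RPM in 8.7 mGy/h, 1 yr embryos, against 1686 RPM in control, 1 yr embryos. The largest called changes were those of cdx4, her5 and bmp4, at 1.06, -0.59 and 0.47 on the log2 scale. Of the 9 maternal transcripts listed, 5 were called lower and 2 higher, or 77.8% beside 42.4% of all genes. Their sum was 1873 RPM in 8.7 mGy/h, 1 yr embryos, against 2028 RPM in control, 1 yr embryos. Most of both sums was pou5f3, which rose against the fall of the sum. It was at 1336 RPM in 8.7 mGy/h, 1 yr embryos and 1173 RPM in control, 1 yr embryos. The log2 changes called lower were -1.29 for buc, -1.14 for sox19b, -0.67 for cth1, -0.59 for nanog and -0.39 for zar1. Those called higher were 0.27 for org and 0.19 for pou5f3. The part of these differences in the dnmt changes was not tested.

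The same 3 genes were called at 53 mGy/h (0 yr) and at 8.7 mGy/h (1 yr), each in opposite directions. These comparisons have separate controls. Of the 3144 genes called in both, 97.6% had opposite directions, so the reversal of dnmt1, dnmt3bb.2 and dnmt3ba is what nearly every gene called in both comparisons shows. Genes higher at 53 mGy/h (0 yr) and lower at 8.7 mGy/h (1 yr), as dnmt1 was, made up 53.2% of them. Genes with the reverse, as for dnmt3bb.2 and dnmt3ba, made up 44.4%.

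**Figure D3:**
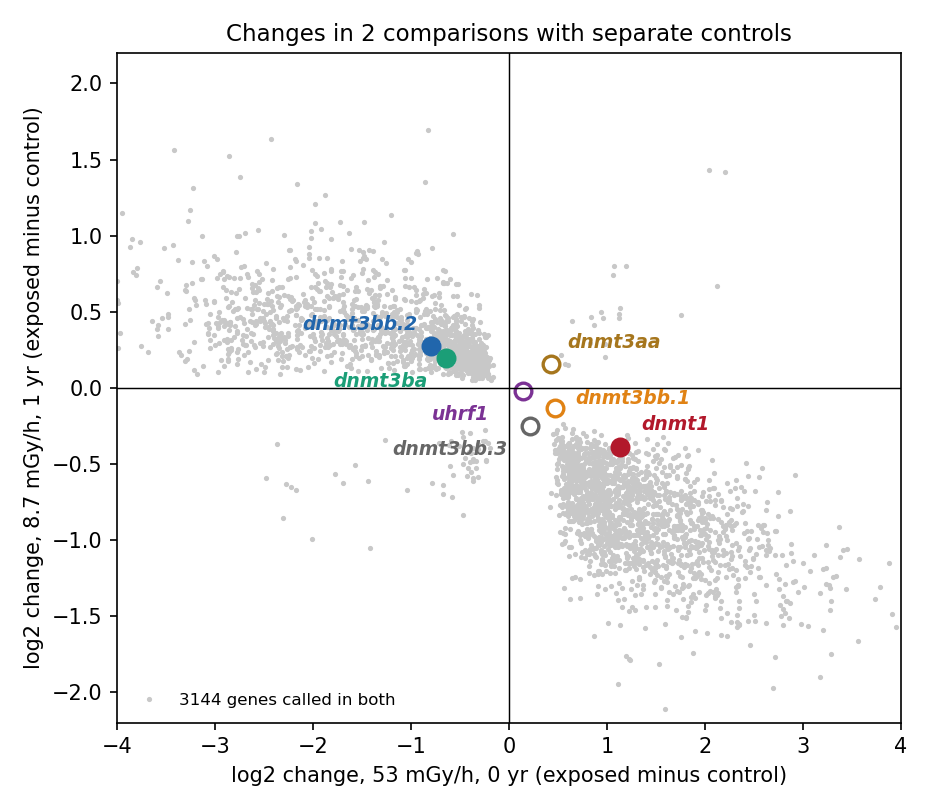
Log2 change (exposed minus control) at 53 mGy/h, 0 yr on the horizontal axis and at 8.7 mGy/h, 1 yr on the vertical axis; grey points are the 3144 genes called in both, of which 18 lie beyond the axes, filled coloured points are dnmt1, dnmt3bb.2 and dnmt3ba, and open ones are the other 4 genes. Most grey points (97.6%) lie in the upper left and lower right, and the 3 filled points lie among them, at 1.13 and -0.39 for dnmt1, -0.79 and 0.27 for dnmt3bb.2 and -0.64 and 0.20 for dnmt3ba.

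Across the 5 groups, dnmt1 was highest in 53 mGy/h, 0 yr embryos (259 RPM) and lowest in 8.7 mGy/h, 1 yr embryos (70.8 RPM). Between them lay 8.7 mGy/h, 0 yr embryos (116 RPM), which were not called different from control, 0 yr embryos (118 RPM), and control, 1 yr embryos (92.6 RPM). Both de novo genes that were called had the ends exchanged. The level of dnmt3bb.2 was highest in 8.7 mGy/h, 1 yr embryos (177 RPM) and lowest in 53 mGy/h, 0 yr embryos (76.8 RPM), with 8.7 mGy/h, 0 yr embryos at 128 RPM and the controls at 133 RPM (0 yr) and 147 RPM (1 yr). For dnmt3ba those ends were 118 RPM in 8.7 mGy/h, 1 yr embryos and 58.3 RPM in 53 mGy/h, 0 yr embryos, with 8.7 mGy/h, 0 yr embryos at 89.2 RPM and the controls at 90.9 RPM (0 yr) and 103 RPM (1 yr). The gene uhrf1 was at 458 and 465 RPM in the exposed and control groups of the later brood, and at 529.8 to 652 RPM in the 3 groups of the first. Levels of different broods come from tables made separately and were not tested against each other.

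The patterns of the 7 genes were compared by the distance between their 3 log2 changes, among 11897 genes listed in all tables with a mean of at least 1 RPM in each. The closest pair was dnmt3bb.2 and dnmt3ba, which lie on different chromosomes, at a distance of 0.17, and the farthest was dnmt1 and dnmt3bb.2 at 2.04. The genes nearest to dnmt1 were fem1b (0.025), fam222bb (0.055) and atp6v0a1a (0.069). Nearest to uhrf1 were dtl (0.018), whose product is a substrate receptor of a ubiquitin ligase, ercc2 (0.025), a helicase gene of transcription and repair, and mrps23 (0.031). Nearest to dnmt3ba were rab43 (0.018), the kinase gene cdk7 (0.023) and PELP1 (0.027). For dnmt3bb.2 they were otub1a (0.034), gltscr2 (0.053) and znf414 (0.064). For dnmt3bb.1 they were fnip1 (0.089), ccdc172 (0.093) and mat2aa (0.095), the last of which encodes an enzyme that makes the methyl donor. For dnmt3bb.3 they were clybl (0.023), tpra1 (0.026) and ncalda (0.030), and for dnmt3aa tns2a (0.040), fh (0.057) and rab30 (0.073). Of the genes compared here, uhrf1, dnmt3bb.1, dnmt3bb.3 and dnmt3aa were called in no comparison, so their neighbours rest on uncalled changes. The distance is a description over 3 comparisons, of which the 0 yr ones share their control.

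Related genes were taken from 6 lists: partners, readers, repair factors, methyl donor genes, TET cofactors and regulators, and trdmt1 alone, a tRNA methyltransferase gene. At 53 mGy/h (0 yr), 15 of the 36 listed genes (41.7%) were called, 6 higher and 9 lower, beside the 43.6% of all genes given above. The median log2 change over the 36 was 0.18, beside 0.12 for all genes. At 8.7 mGy/h (0 yr), 0 of 37 were called, beside 0.294% of all genes. At 8.7 mGy/h (1 yr), 13 of 37 (35.1%) were called, beside 42.4% of all genes, with 10 higher and 3 lower beside 20.0% higher and 22.4% lower. Their median was -0.02 beside -0.09 for all genes.

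Of the partners in maintenance, 1 of 5 (20%) was called at 53 mGy/h (0 yr), beside 43.6% of all genes. At 1 yr 2 of 5 (40%) were called, beside 42.4% of all genes. The replication clamp gene pcna, on which DNMT1 rides in mammals, was at 277 RPM in 53 mGy/h, 0 yr embryos, against 368 RPM in control, 0 yr embryos, a fall by 0.41 on the log2 scale. At 1 yr it rose, to 410.2 RPM in 8.7 mGy/h embryos against 348 RPM in controls, and hells, a chromatin remodeller needed for methylation in mice, rose to 21.1 RPM in 8.7 mGy/h, 1 yr embryos, against 17.2 RPM in control, 1 yr embryos. The remodelling cofactor genes cdca7a and cdca7b and the deubiquitinase gene usp7 were called in neither comparison, at 742, 164 and 185 RPM in 53 mGy/h, 0 yr embryos and 671, 126 and 163 RPM in control, 0 yr embryos.

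Of 7 genes of methyl-CpG readers and their relatives, 2 rose and 1 fell at 53 mGy/h (0 yr), and 2 rose at 1 yr. The called share was 42.9% at 53 mGy/h (0 yr), beside 43.6% of all genes. At 1 yr it was 28.6%, beside 42.4% of all genes. The MBD-family gene mbd5 rose to 25.4 RPM in 53 mGy/h, 0 yr embryos, against 10.3 RPM in control, 0 yr embryos. The gene mbd1b rose to 85.9 RPM in 53 mGy/h, 0 yr embryos, against 54.8 RPM in control, 0 yr embryos. The gene mbd3b, whose mammalian relative is a subunit of a deacetylase complex, had 22.4 RPM in 53 mGy/h, 0 yr embryos against 44.6 RPM in control, 0 yr embryos, and 77.6 RPM in 8.7 mGy/h, 1 yr embryos against 63.8 RPM in control, 1 yr embryos. Its paralogue mbd3a rose at 1 yr, to 154 RPM in 8.7 mGy/h embryos against 129.9 RPM in controls.

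The list for base removal and repair after TET oxidation is a mixed one, in which tdg.1 and apex1 stand beside apobec2b and gadd45 genes. It had the largest called share of the 5 lists with more than 1 gene at 53 mGy/h (0 yr). There 2 were called higher and 4 lower of 7, or 85.7% beside 43.6% of all genes. The stress-response genes gadd45ba and gadd45bb, whose mammalian relatives have been tied to demethylation, had log2 changes of -2.14 and -1.81 and were called lower. Their paralogue gadd45aa was called higher, at 14.4 RPM in 53 mGy/h, 0 yr embryos, against 4.28 RPM in control, 0 yr embryos, a log2 change of 1.75. For gadd45ba and gadd45bb the levels were 5.14 and 21.4 RPM in 53 mGy/h, 0 yr embryos, against 22.6 and 74.9 RPM in control, 0 yr embryos. The deaminase family gene apobec2b rose (log2 change 1.84) to 13.4 RPM in 53 mGy/h, 0 yr embryos against 3.73 RPM in control, 0 yr embryos.

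At 1 yr, 4 of the 7 genes of this mixed list rose and 1 fell, a called share of 71.4% beside 42.4% of all genes. The glycosylase gene tdg.1, whose product cuts out oxidised methylcytosine in mammals, was at 20.5 RPM in 8.7 mGy/h, 1 yr embryos, against 14.1 RPM in control, 1 yr embryos. The gene apex1, of an endonuclease that acts after the glycosylase, rose to 100.7 RPM in 8.7 mGy/h, 1 yr embryos, against 71.7 RPM in control, 1 yr embryos. At 53 mGy/h (0 yr) both were called lower, with tdg.1 at 3.38 RPM against 8.61 RPM in control, 0 yr embryos and apex1 at 24.1 RPM against 57.6 RPM in control, 0 yr embryos. The gene apobec2b fell at 1 yr, to 1.71 RPM in 8.7 mGy/h embryos against 2.88 RPM in controls. Its FDR in the authors' deposited table was 0.040, close to the threshold. Also close to it was gadd45ba (FDR 0.046 in that table), called lower at 53 mGy/h (0 yr) but higher at 1 yr. Its level was 40.3 RPM in 8.7 mGy/h, 1 yr embryos, against 37.1 RPM in control, 1 yr embryos. The other gene called higher was gadd45ga, at 7.59 RPM in 8.7 mGy/h, 1 yr embryos, against 5.63 RPM in control, 1 yr embryos.

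Among the genes listed for supply and turnover of the methyl donor S-adenosylmethionine, 9 of 11 were not called at 53 mGy/h (0 yr). The called share there was 18.2%, beside 43.6% of all genes, and at 1 yr it was 33.3%, beside 42.4%. The gene mtrr, of the enzyme that keeps methionine synthase active, rose to 19.6 RPM in 53 mGy/h, 0 yr embryos, against 9.77 RPM in control, 0 yr embryos, and fell at 1 yr, to 5.50 RPM in 8.7 mGy/h embryos against 9.34 RPM in controls. The synthetase gene mat2ab fell to 0.95 RPM in 53 mGy/h, 0 yr embryos, against 2.31 RPM in control, 0 yr embryos. Its paralogue mat2aa was at 368 RPM in 53 mGy/h, 0 yr embryos, against 250 RPM in control, 0 yr embryos. It was not called (FDR 0.0597 in the authors' deposited table). At 1 yr bhmt, which makes methionine from betaine, rose to 13.3 RPM in 8.7 mGy/h embryos against 6.03 RPM in controls. The gene mat2b, of a regulatory subunit of the synthetase, fell to 15.4 RPM in 8.7 mGy/h embryos against 20.1 RPM in controls. Its FDR in the authors' deposited table was 0.024.

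Of 5 genes tied to TET cofactors and regulation, idh1, which makes the cofactor 2-oxoglutarate, fell to 6.46 RPM in 53 mGy/h, 0 yr embryos, against 14.2 RPM in control, 0 yr embryos. The glycosyltransferase gene ogt.1, whose mammalian product binds TET proteins, rose to 69.6 RPM in 53 mGy/h, 0 yr embryos, against 38.1 RPM in control, 0 yr embryos. Its paralogue ogt.2 was at 82.2 RPM in 53 mGy/h, 0 yr embryos, against 90.6 RPM in control, 0 yr embryos, and was not called. Of the 5 genes, 40% were called at 53 mGy/h (0 yr), beside 43.6% of all genes. At 1 yr none of the 5 was called, beside 42.4% of all genes. The gene trdmt1, once named dnmt2, encodes an enzyme that methylates tRNA rather than DNA. It fell by 2.48 on the log2 scale, to 0.47 RPM in 53 mGy/h, 0 yr embryos against 2.62 RPM in control, 0 yr embryos. The exposed value is near the floor, since the higher group of every gene listed there had at least 0.58 RPM. At 1 yr trdmt1 was at 3.71 RPM in 8.7 mGy/h embryos and 3.22 RPM in controls (FDR 0.281 in the authors' deposited table).

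**Figure D4:**
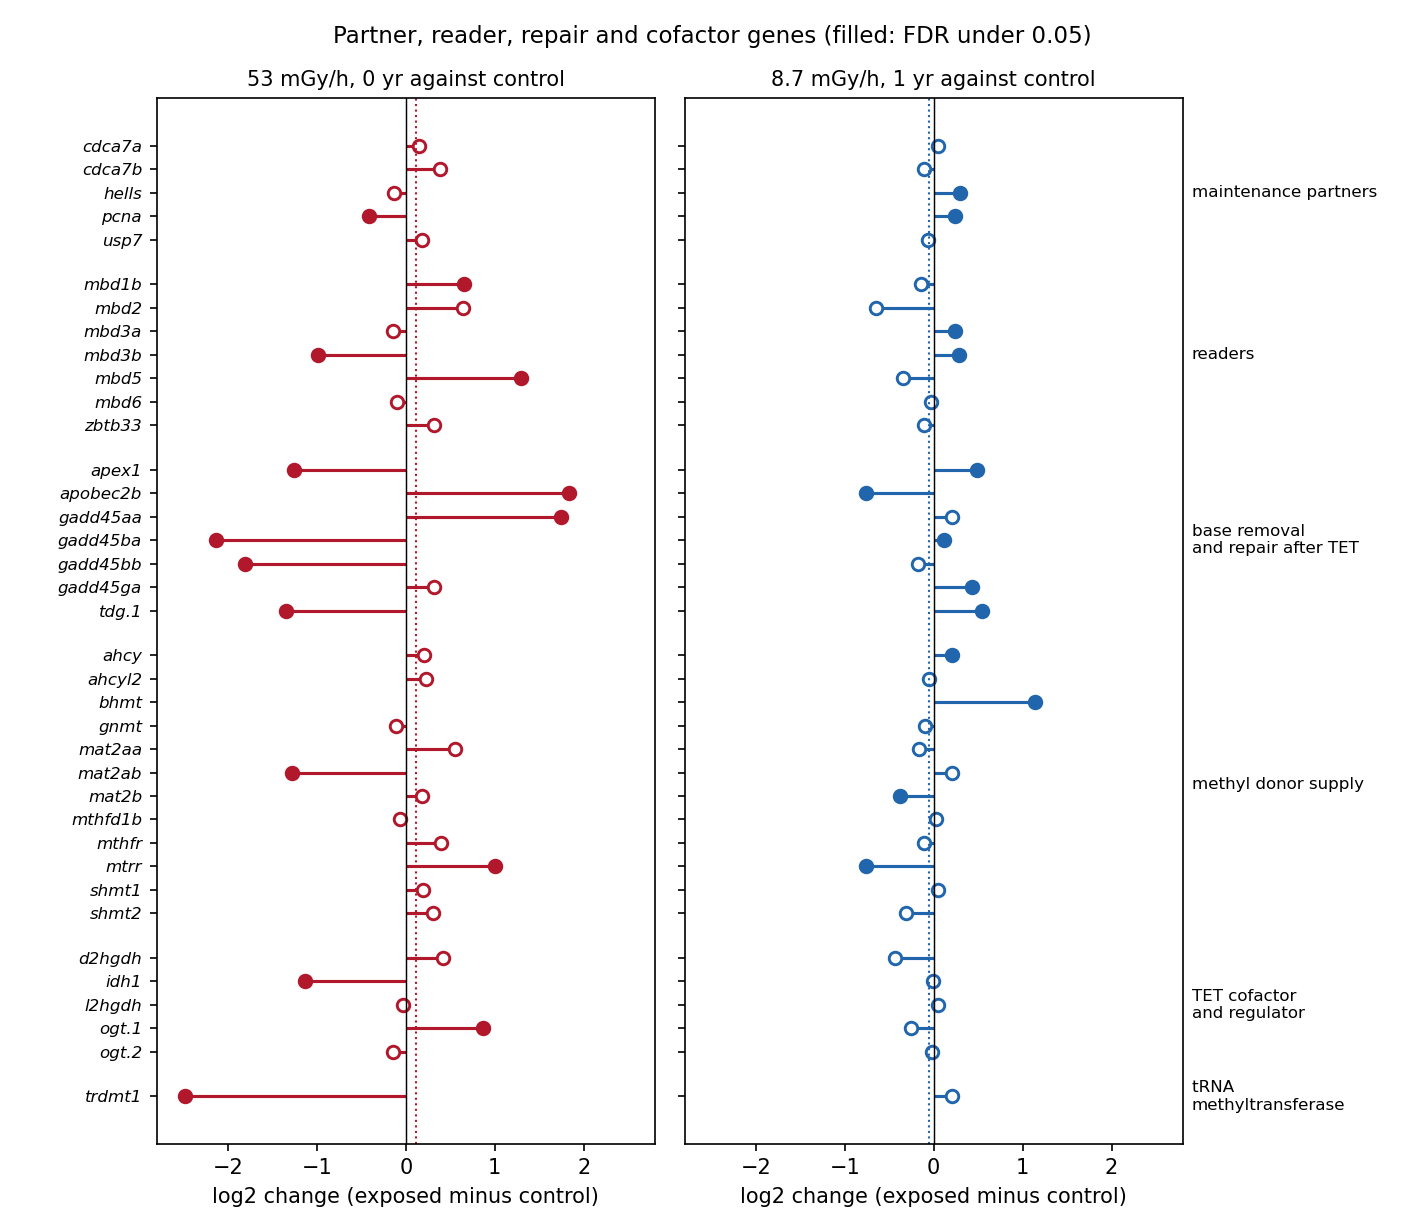
Log2 change (exposed minus control) of the partner, reader, repair, methyl donor and cofactor genes and of trdmt1 at 53 mGy/h, 0 yr (left) and 8.7 mGy/h, 1 yr (right), grouped by list, with filled points for an FDR under 0.05 and a dotted line at the median of genes with at least 10 RPM. In the left panel 6 of 36 genes are filled on the positive side and 9 on the negative, and in the right panel 10 of 37 on the positive side and 3 on the negative.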

How the data were processed

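Poly(A) RNA was sequenced in 14 libraries of 5 groups. The submitters' processing notes list STAR 2.5.2b, DESeq2, the build GRCz10, FastQC 0.11.5 and Trim Galore 0.4.2, and give no roles or settings. Per the file headers, the 3 deposited tables give 1 RPM and 1 log2 RPM value per group and gene. They also hold an adjusted p-value (FDR) and 2 columns not used further, a ratio of exposed to control and a signed fold score, both deposited by the authors. The libraries were non-directional, per the labels' protocols, so antisense transcripts cannot be separated.

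Depth was recovered on the premise that log2 RPM is the mean over libraries of log2 values made from whole reads. In each group the 150 lowest values from 0.4 RPM upward were then all whole (tolerance 0.04) at the smallest depth that fits, which is the one given; the method was tested on simulated data. Python 3.11.15, numpy 2.4.6 and pandas 2.3.3 were used. The tables were made separately, and 13197 genes in both 0 yr tables had identical control values. A gene was called at an FDR under 0.05, and the planned fits to counts per library, tests of a single gene over samples and sequence features were not possible. The 7 genes and the lists were chosen with earlier results of these data known. The lists leave out 1 gene that is not reported here. From each list and comparison the called genes with the largest change were named, up to 3, and the text gives the other values of some of them. The values of cdca7a, cdca7b, usp7, gadd45aa, gadd45ga, mat2aa, ogt.2, nanog, pou5f3, zar1, zp2.5 and zp3b were added after they were seen.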

Additional observations from a re-analysis of the deposited data

How the results depend on the processing

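No paired analysis was possible because the tables hold 1 value per group, and for the same reason no library could be left out and no refit was made. A pseudocount of 1 or 0.1 RPM, added to both groups, cannot turn the sign of a change. A zero at the median of genes can, and it turned 3 of the 21 changes of the 7 genes. These 3, all uncalled, were dnmt1 (0.019) and dnmt3ba (0.012) at 8.7 mGy/h, 0 yr, and uhrf1 (0.032) at 8.7 mGy/h, 1 yr. At an FDR under 0.1, 2 of the 7 genes were higher at 53 mGy/h rather than 1, the added one being dnmt3bb.1. With at least 1.5-fold required, 0 were higher and 0 lower at 8.7 mGy/h, 1 yr, as the changes there are smaller than that. Of the genes in the 6 lists of related genes, 1 rather than 10 was then higher. Of all genes, 536 and 1854 were higher and lower rather than 2500 and 2801. At an FDR under 0.01, 1 gene of the 6 lists rather than 3 was lower at 1 yr. With that same threshold, 13 of all genes were higher and 10 lower at 8.7 mGy/h, 0 yr, rather than 20 and 19. The other counts stayed within 1.5 times. Depth limits dnmt3aa most.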
